A study of Stenocereus queretaroensis with 6 samples.

Results

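Transcripts for the pyruvate dehydrogenase complex, the tricarboxylic acid (TCA) cycle and the mitochondrial respiratory chain were compared in cactus cells grown in suspension (*Stenocereus queretaroensis*) at 8% and at 3% sucrose. The features are transcript clusters of a de novo assembly, each called here by what Swiss-Prot says of the protein it matches best. A cluster was included when that description holds a name of pyruvate dehydrogenase, most TCA cycle enzymes, respiratory complexes I to IV, the mitochondrial ATP synthase or a ubiquinol oxidase. Such names also take in assembly factors, pyruvate dehydrogenase regulators, ATP-citrate synthase, succinate-semialdehyde dehydrogenase and plastid, cytoplasmic or glyoxysomal forms. They miss malate dehydrogenase, the E3 subunit of pyruvate dehydrogenase, cytochrome b and the mitochondrially encoded chains of complex I. The rule gave 557 of the 170970 clusters in the deposited table, on 168 distinct proteins, of which 105 were hit by more than 1 cluster. Clusters that share a protein can be alleles, gene copies or pieces of 1 transcript, so the change of any 1 of them is uncertain.

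The 8% sucrose group has 3 libraries (titled SqR) and the 3% sucrose group has 3 libraries (titled SqY), all from cells on MS, a mineral medium in common use for plant cultures. The labels do not explain the letters R and Y and give neither the age of the cultures nor a cell line. The design text speaks of replicates, the extraction protocol names only the first library of each medium, and nothing says that libraries came from separate cultures. P-values therefore cover the spread among these libraries alone, and that spread may be technical.

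In plant mitochondria, the pyruvate dehydrogenase complex turns pyruvate from glycolysis into acetyl-CoA, and the TCA cycle oxidises it while reducing NAD and ubiquinone. Complexes I to IV pass the electrons to oxygen and pump protons, and the ATP synthase makes ATP from the proton gradient. Plants also have an alternative oxidase, which passes electrons from ubiquinol straight to oxygen without pumping protons, and whose transcripts are known to respond to stress and to carbon and nitrogen supply.

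Libraries held 35476032 to 36919130 counts at 8% sucrose and 36357450 to 41147265 at 3% sucrose. Levels are in CPM, the count of a cluster as a share of all counts in its library. In log CPM, 74.1% of the variance lay on a first principal component that divides the media, and 7.6% on a second on which replicate 1 at 3% sucrose stands away from its fellow libraries. Markers of dividing cells (B-type cyclins, B-type cyclin-dependent kinases, KNOLLE, PCNA) summed to 257.1 to 272.5 CPM at 8% and 464.2 to 514.0 CPM at 3% sucrose, with 3 of 31 tested clusters higher and 21 lower at 8%. Markers of chlorophyll-bearing cells (chlorophyll a-b binding proteins and the Rubisco small subunit) summed to 43.64 to 45.16 CPM at 8% and 885.9 to 924.6 CPM at 3% sucrose, with 1 of 27 tested clusters higher and 20 lower at 8%, and 5 of these 27 at 0 in every 8% library. Secondary-wall cellulose synthases, which mark xylem, summed to 19.57 to 23.48 CPM at 8% and 79.58 to 88.48 CPM at 3% sucrose. The part of these marker shifts in the results that follow was not tested. In these bulk samples, fewer cells of a type and less RNA per cell cannot be told apart.

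At 8% sucrose, transcripts for nearly every enzyme and complex taken by the rule held a smaller share of the library, whereas the alternative oxidase rose about 16.4-fold in summed CPM. Summed over their clusters, 22 of 24 enzymes, complexes and their assembly factors lay lower in all 8% libraries than in any 3% library, 1 (the alternative oxidase) lay higher and 1 overlapped. Over the table, 51.8% of all proteins, their clusters summed, lay lower in this way and 30.7% higher. These shares are of single proteins, while most of the 24 sums hold several proteins, so the comparison is not like for like. In FPKM, the authors' fragment count scaled by cluster length and library size, 20 of the 24 lay lower, 2 higher (the alternative oxidase and complex I assembly), and the NADP-dependent isocitrate dehydrogenases and the plant succinate-semialdehyde dehydrogenase overlapped. The TCA cycle enzymes chosen by the rule, with complex II and without the glyoxysomal citrate synthase and the NADP-dependent isocitrate dehydrogenases, summed to 2273 ± 58.0 CPM at 8% and 4326 ± 189 CPM at 3% sucrose (SD, n = 3 each), a ratio of 0.525. With mitochondrial malate dehydrogenase, which the rule does not take and which was higher at 8%, the ratio was 0.599. Both sums keep aconitase hits labelled cytoplasmic and fumarate hydratase 2, labelled chloroplastic. The most abundant cytoplasmic aconitase protein averaged 189.8 ± 11.2 CPM at 8% and 443.5 ± 19.1 CPM at 3% sucrose. Subunits of complexes I to IV and the ATP synthase summed to 4813 ± 69.4 CPM at 8% and 7103 ± 186 CPM at 3% sucrose, a ratio of 0.677. Sums were not tested. Because CPM is a share of the library, a lower value does not give the amount of RNA per cell.

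**Figure D1:**
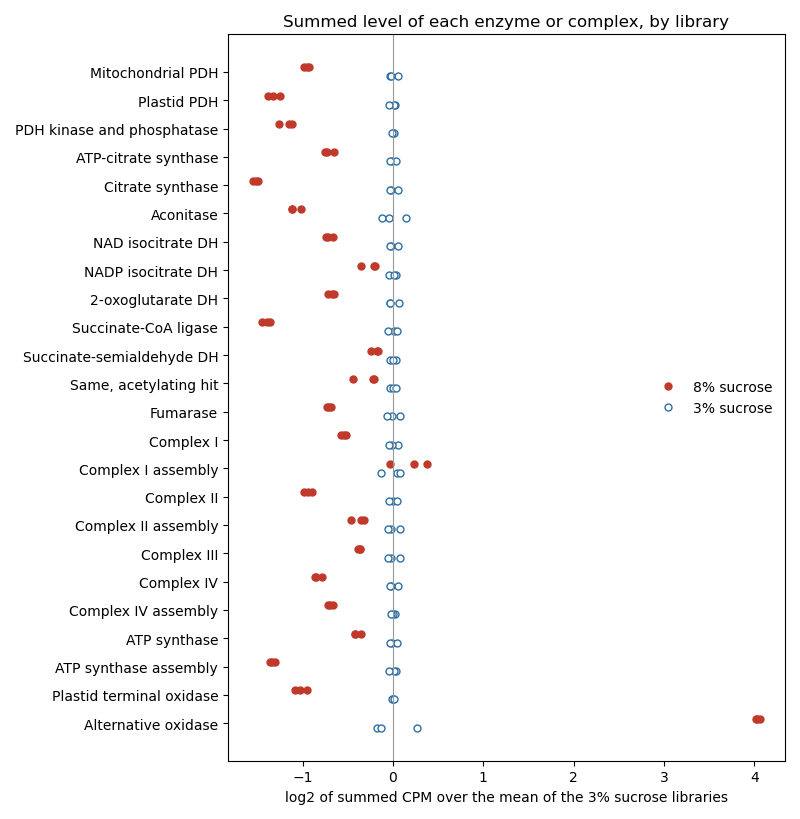
Summed CPM of each enzyme or complex in each library, as log2 of its ratio to the mean of the 3% sucrose libraries (horizontal axis), with 8% sucrose as filled points above and 3% sucrose as open points below in each row (3 libraries each). The alternative oxidase stands at about 4 at 8% sucrose, complex I assembly overlaps between the media, and every other row has its 8% points left of its 3% points; DH stands for dehydrogenase and PDH for pyruvate dehydrogenase.

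Cluster by cluster the picture was more divided. Of the 557 clusters, 434 passed the filter on low counts and 123 did not, 14 of those with no count at all. By edgeR's quasi-likelihood test with Benjamini-Hochberg adjustment over all 85038 tested clusters, 113 were higher and 158 lower at 8% sucrose and 163 were not called at 0.05. Over all tested clusters 29.1% were higher and 25.6% lower, 54.6% in either direction. The median log2 fold change, 8% over 3% sucrose, was -0.09 for the 434 clusters and 0.19 over all tested clusters. In the authors' deposited table, 99 of the 557 clusters are called up and 154 down at 8% sucrose, against 14.8% and 13.8% of all clusters of that table, and none of the clusters called here has the opposite call there.

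When counts were summed over all clusters of a protein and tested in the same way, with adjustment over 44765 features (13183 proteins and the clusters without a hit), 33 proteins of the pathway were higher, 89 lower and 16 not called at 8% sucrose, and 30 were not tested. Over all proteins tested, 29.3% were higher and 49.0% lower, against 23.9% and 64.5% of the 138 tested here. The median log2 fold change was -0.56 for these 138 and -0.30 over all proteins. A protein here is a Swiss-Prot entry, so a subunit matched by several entries counts more than once. Fold changes of proteins in the paragraphs that follow come from this test and those of clusters from the test on clusters. Adjusted p-values are edgeR's throughout.

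**Figure D2:**
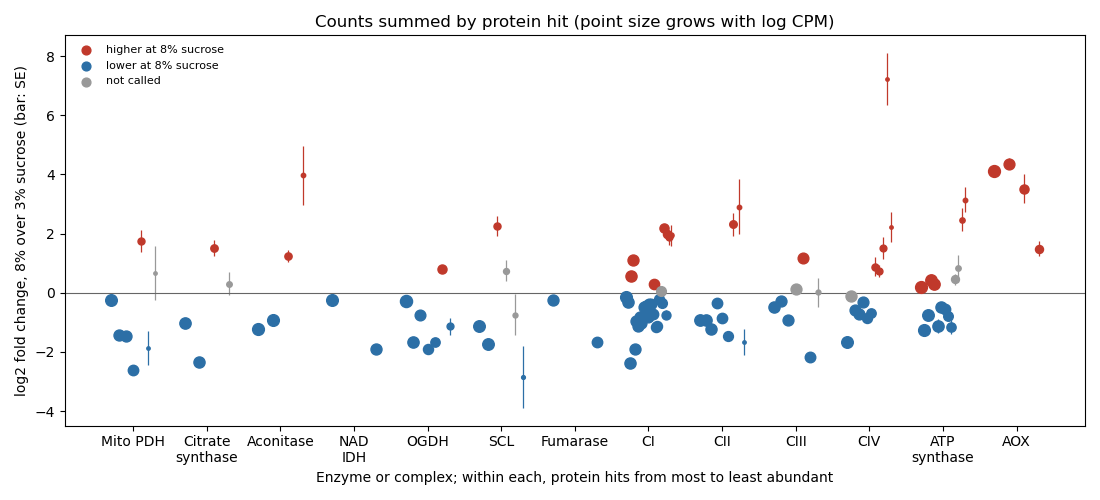
Log2 fold change, 8% over 3% sucrose, of counts summed by protein (vertical axis, bars are SE, 3 libraries per medium), with proteins of each enzyme or complex ordered from most to least abundant and point size growing with log CPM. The abundant proteins of most columns lie below 0, complex I and the ATP synthase have abundant proteins on both sides, and all 4 alternative oxidase proteins lie above 0; OGDH is 2-oxoglutarate dehydrogenase and SCL succinate-CoA ligase.

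Pyruvate dehydrogenase transcripts were lower at 8% sucrose for the abundant proteins of its catalytic parts taken by the rule. The mitochondrial complex summed to 376.9 ± 8.02 CPM at 8% and 731.2 ± 22.7 CPM at 3% sucrose, with 2 of its 18 tested clusters higher and 8 lower. The E1 alpha subunit, part of the decarboxylating enzyme, changed least of its abundant proteins, with 230.8 ± 4.79 CPM at 8% and 276.7 ± 5.70 CPM at 3% sucrose (log2 fold change -0.26 ± 0.04 SE, adjusted p = 0.000983). The main E1 beta cluster, Cluster-2051.61227, had 42.24, 43.12 and 44.73 CPM at 8%, against 159.1, 161.4 and 155.6 CPM at 3% sucrose (log2 fold change -1.87 ± 0.05, adjusted p = 1.13e-06). The media did not overlap, and the spread within each was small beside the gap. A low-count E1 beta protein with an Arabidopsis hit was higher, with 3.723 ± 0.965 CPM at 8% and 1.105 ± 0.494 CPM at 3% sucrose (log2 fold change 1.75 ± 0.38, adjusted p = 0.00403). Cluster-22210.1 had the smallest adjusted p of the higher clusters of this complex. Its log2 fold change was 8.05 to 9.14 with 1 library left out. The E2 acetyltransferase, which hands the acetyl group to coenzyme A, is matched by 2 abundant proteins, and both fell: the more abundant one averaged 61.54 ± 3.48 CPM at 8% and 167.6 ± 5.42 CPM at 3% sucrose, and the other averaged 17.72 ± 1.93 CPM at 8% and 107.4 ± 5.94 CPM at 3% sucrose. The E1 alpha and E1 beta subunits, which work as a tetramer, thus differed in the size of their fall, by -0.26 and -1.42 in log2 for their main proteins; the difference was not tested.

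Of the regulators, the kinase fell. Pyruvate dehydrogenase kinase switches the mitochondrial complex off by phosphorylating E1 alpha. Its main cluster, Cluster-2051.28144, had 28.77, 31.06 and 30.20 CPM at 8%, against 57.73, 58.16 and 55.19 CPM at 3% sucrose. Another kinase cluster, Cluster-2051.18013, had 4.422, 3.936 and 4.121 CPM at 8%, against 27.55, 28.93 and 26.14 CPM at 3% sucrose (log2 fold change -2.73 ± 0.10, adjusted p = 2.61e-06). Both kinase clusters were lower in every 8% library. Of the 8 tested clusters of kinases and phosphatases, 3 were lower, none higher and 5 not called, and the phosphatase regulatory subunit, known by its mouse hit, had 0.726 ± 0.589 CPM at 8% and 1.14 ± 0.348 CPM at 3% sucrose (adjusted p = 0.491). The plastid pyruvate dehydrogenase, which supplies acetyl-CoA for fatty acid synthesis, was lower in all 8 of its tested clusters, and its sum was 115.3 ± 5.14 CPM at 8% and 288.1 ± 6.97 CPM at 3% sucrose. It fell beside the chlorophyll-cell markers given above, whose part was not tested. ATP-citrate synthase, a cytosolic enzyme outside the cycle that makes acetyl-CoA from citrate, summed to 194.9 ± 6.95 CPM at 8% and 319.1 ± 7.79 CPM at 3% sucrose.

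Citrate synthase, the entry step of the cycle, fell in its mitochondrial and its glyoxysomal form. The clusters with a mitochondrial hit summed to 119.4 ± 1.99 CPM at 8% and 238.2 ± 8.19 CPM at 3% sucrose, a ratio of 0.501. Among them a low-count protein matching the Citrus maxima enzyme was higher, with 4.839 ± 1.32 CPM at 8% and 1.691 ± 0.329 CPM at 3% sucrose. The main mitochondrial one, Cluster-2051.100767, had 105.4, 110.4 and 106.9 CPM at 8%, against 226.8, 236.7 and 219.5 CPM at 3% sucrose (log2 fold change -1.08 ± 0.05, adjusted p = 7.37e-06). The glyoxysomal form, Cluster-2051.46624, had 43.15, 48.25 and 46.74 CPM at 8%, against 233.1, 247.1 and 232.0 CPM at 3% sucrose (log2 fold change -2.37 ± 0.06, adjusted p = 1.06e-06). That form serves peroxisomal fatty acid breakdown and the glyoxylate cycle, not the TCA cycle. Per length, the main clusters of both forms stood at a like level at 3% sucrose, 126.6 FPKM for the mitochondrial and 124.7 FPKM for the glyoxysomal one. At 8% they stood at 66.52 and 26.89 FPKM.

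Aconitase, which isomerises citrate, summed to 387.3 ± 15.6 CPM at 8% and 822.7 ± 78.3 CPM at 3% sucrose. Its main cluster, Cluster-2051.63869, has a hit to a cytoplasmic aconitase and had 183.2, 193.6 and 169.5 CPM at 8%, against 428.7, 466.4 and 430.3 CPM at 3% sucrose (log2 fold change -1.28 ± 0.07). The mitochondrial aconitase 3 protein averaged 193.8 ± 9.30 CPM at 8% and 370.2 ± 56.1 CPM at 3% sucrose, with more spread at 3% sucrose. Of the 16 tested aconitase clusters, 6 were higher and 4 lower at 8% sucrose. The 2 aconitase proteins called higher had few counts. They averaged 4.233 and 0.9082 CPM at 8%, against 1.777 and 0.05451 CPM at 3% sucrose. The NAD-dependent isocitrate dehydrogenase, the first oxidative step, has catalytic and regulatory subunits. Catalytic subunit 5, Cluster-2051.77965, had 47.85, 52.62 and 50.39 CPM at 8%, against 189.9, 197.4 and 188.2 CPM at 3% sucrose (log2 fold change -1.93 ± 0.06, adjusted p = 1.42e-06). Regulatory subunit 1, summed over its 11 clusters, averaged 246.4 ± 5.38 CPM at 8% and 289.7 ± 10.4 CPM at 3% sucrose (log2 fold change -0.23 ± 0.05). The 2 subunit types of this enzyme were therefore lower by very different amounts, and that difference was not tested. The NADP-dependent isocitrate dehydrogenases, which sit in the cytosol, plastid and mitochondrion and make NADPH, had a summed ratio of 0.839.

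The 2-oxoglutarate dehydrogenase complex summed to 619.0 ± 13.6 CPM at 8% and 996.2 ± 38.2 CPM at 3% sucrose. Its succinyltransferase core subunit, Cluster-2051.70536, was the most abundant cluster of the whole set, with 390.9, 423.5 and 412.1 CPM at 8%, against 513.5, 540.7 and 509.0 CPM at 3% sucrose (log2 fold change -0.35 ± 0.05, adjusted p = 0.00122). The decarboxylating subunit was matched by 5 proteins, none from a plant, of which 4 were lower. The most abundant, with a slime mould hit, averaged 77.97 ± 3.02 CPM at 8% and 248.6 ± 17.2 CPM at 3% sucrose, and the one with an Ochrobactrum hit went the other way, with 18.64 ± 2.27 CPM at 8% and 10.68 ± 1.02 CPM at 3% sucrose (log2 fold change 0.80, adjusted p = 0.000619). Cluster-2051.46241 among them had 4.402, 4.768 and 4.657 CPM at 8%, against 38.29, 43.07 and 37.11 CPM at 3% sucrose (log2 fold change -3.10 ± 0.09, adjusted p = 1.49e-06). Succinate-CoA ligase makes ATP directly in the cycle. Its alpha-2 subunit, Cluster-2051.76556, had 51.65, 52.29 and 49.47 CPM at 8%, against 229.5, 233.5 and 218.4 CPM at 3% sucrose (log2 fold change -2.15 ± 0.05), and its beta subunit, Cluster-2051.70938, had 141.4, 153.9 and 152.5 CPM at 8%, against 331.2, 341.9 and 318.9 CPM at 3% sucrose (log2 fold change -1.15 ± 0.05). Neither subunit overlapped between the media.

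Fumarase, which hydrates fumarate to malate, had clusters called in both directions. Fumarate hydratase 1, the mitochondrial form, was hit by 24 clusters, the most for any protein here, of which 9 were higher and 5 lower at 8% sucrose. Their counts together were slightly lower, at 106.6 ± 1.42 CPM at 8% and 124.8 ± 7.42 CPM at 3% sucrose (log2 fold change -0.23 ± 0.06, adjusted p = 0.00729). The single cluster with a fumarate hydratase 2 hit, labelled chloroplastic, is Cluster-2051.97372. It had 29.30, 31.98 and 29.04 CPM at 8%, against 96.73, 100.5 and 93.12 CPM at 3% sucrose (log2 fold change -1.68 ± 0.07). Hits labelled succinate-semialdehyde dehydrogenase, the last step of the GABA shunt that feeds succinate to the cycle, were slightly lower. The plant enzyme averaged 39.47 ± 1.09 CPM at 8% and 44.62 ± 0.904 CPM at 3% sucrose (log2 fold change -0.18, adjusted p = 0.0163), and an archaeal acetylating one 22.61 ± 1.90 CPM at 8% and 27.24 ± 0.557 CPM at 3% sucrose (log2 fold change -0.27, adjusted p = 0.0152). NR names clusters of the second as an alcohol dehydrogenase, so their identity is doubtful.

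Complex I, the NADH dehydrogenase that is the main entry of electrons, had 114 clusters, and they summed to 1850 ± 35.6 CPM at 8% and 2697 ± 94.3 CPM at 3% sucrose. Of its 28 tested proteins, 7 were higher, 20 lower and 1 not called at 8% sucrose. These are not 28 different subunits. Iron-sulfur proteins 7 and 8 each have an abundant entry that was lower and less abundant entries that were higher. Cluster-2051.51687, iron-sulfur protein 2 of the core that holds the quinone site, had 26.66, 23.82 and 26.27 CPM at 8%, against 188.6, 167.9 and 184.6 CPM at 3% sucrose (log2 fold change -2.82 ± 0.08, adjusted p = 1.08e-06). It had the smallest adjusted p of the complex I clusters that fell, and in most flowering plants this subunit is encoded in the mitochondrial genome. Other core subunits moved less: flavoprotein 1, which takes electrons from NADH, averaged 80.60 ± 2.97 CPM at 8% and 113.8 ± 2.58 CPM at 3% sucrose, and the large iron-sulfur protein 1 averaged 81.68 ± 3.85 CPM at 8% and 112.3 ± 5.88 CPM at 3% sucrose. The most abundant complex I cluster, Cluster-2051.71006 for iron-sulfur protein 7, had 257.3, 253.5 and 256.0 CPM at 8%, against 311.2, 304.0 and 282.8 CPM at 3% sucrose (log2 fold change -0.23 ± 0.05, adjusted p = 0.00829). Less abundant proteins of this subunit were higher. The one with an Arabidopsis hit averaged 25.94 ± 0.764 CPM at 8% and 5.698 ± 0.597 CPM at 3% sucrose (log2 fold change 2.19 ± 0.10). The one with a potato hit averaged 9.722 ± 1.61 CPM at 8% and 2.444 ± 0.285 CPM at 3% sucrose (log2 fold change 1.99 ± 0.18).

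A few complex I subunits went the other way. Iron-sulfur protein 6, an accessory subunit, is matched by 1 cluster, Cluster-2051.72598, which had 158.8, 163.4 and 162.9 CPM at 8%, against 78.81, 74.94 and 72.30 CPM at 3% sucrose (log2 fold change 1.10 ± 0.05, adjusted p = 8.35e-06). The probable alpha subunit 12 averaged 170.0 ± 2.50 CPM at 8% and 115.2 ± 3.14 CPM at 3% sucrose (log2 fold change 0.56 ± 0.04). Both rose beyond the spread of their libraries in a complex whose other abundant subunits mostly fell. Alpha subunit 8-B had 4 clusters higher, each under 5 CPM, and 2 lower, which held most of its counts at 3% sucrose. Cluster-2051.1894 had 0 counts in all 3 libraries at 8%, against 30.89, 26.95 and 26.86 CPM at 3% sucrose, which makes it at least 357-fold lower at 8% when each 8% library is set at 3 counts. The other lower cluster, Cluster-2051.68235, had 13.35, 12.16 and 12.22 CPM at 8%, against 27.92, 27.12 and 25.14 CPM at 3% sucrose. Over all 10 clusters the protein averaged 26.41 ± 0.301 CPM at 8% and 59.13 ± 4.17 CPM at 3% sucrose (log2 fold change -1.16 ± 0.06), so transcripts of the protein were still measured at 8% sucrose.

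Complex II, succinate dehydrogenase, is both a TCA cycle enzyme and a part of the chain. It summed to 454.3 ± 13.6 CPM at 8% and 873.2 ± 26.4 CPM at 3% sucrose, a ratio of 0.520. The sums of the cycle enzymes given above include complex II, so their ratios are not separate from this value. The flavoprotein that binds succinate, Cluster-2051.78819, had 123.0, 136.7 and 126.8 CPM at 8%, against 250.8, 273.4 and 249.5 CPM at 3% sucrose (log2 fold change -1.0 ± 0.06, adjusted p = 2.81e-05). The iron-sulfur subunit averaged 116.4 ± 5.01 CPM at 8% and 218.3 ± 1.78 CPM at 3% sucrose, and subunit 5, found in plants beside the classical subunits, averaged 83.01 ± 2.65 CPM at 8% and 192.2 ± 8.78 CPM at 3% sucrose. All 6 complex II proteins with a mean of at least 10 CPM were lower at 8% sucrose. Among those below 10 CPM, subunits 3-1 and 7B were higher and a second flavoprotein was lower. The call of 7B was lost without 8% replicate 2 or 3 or 3% replicate 3, and that of the second flavoprotein without the filter on low counts; both were also lost in the fit with a replicate block.

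Complex III, the cytochrome b-c1 complex, takes electrons from ubiquinol to cytochrome c. In summed CPM it kept more of its level than complexes I, II and IV, with 545.0 ± 4.07 CPM at 8% and 704.3 ± 32.9 CPM at 3% sucrose. That order depends on the unit. In summed FPKM complex III stood at 1074 ± 28.9 at 8% and 1615 ± 48.9 at 3% sucrose. Complex I stood at 3360 ± 152 and 3715 ± 62.2 FPKM, a smaller fall. The Rieske iron-sulfur protein, its electron-accepting subunit, fell in Cluster-2051.73607, which had 106.9, 115.2 and 112.0 CPM at 8%, against 169.5, 170.2 and 157.3 CPM at 3% sucrose (log2 fold change -0.57 ± 0.06). The small subunit 9 fell further in Cluster-2051.61985, which had 20.58, 22.58 and 20.28 CPM at 8%, against 113.1, 98.27 and 96.76 CPM at 3% sucrose (log2 fold change -2.28 ± 0.09). Subunit 7 has 2 abundant forms that moved apart. The form matching subunit 7-2, Cluster-2051.76457, had 123.1, 118.6 and 117.5 CPM at 8%, against 56.75, 50.75 and 52.67 CPM at 3% sucrose (log2 fold change 1.17 ± 0.06, adjusted p = 1.24e-05), while the form matching the potato subunit 7 averaged 98.23 ± 1.08 CPM at 8% and 120.5 ± 5.29 CPM at 3% sucrose (log2 fold change -0.29 ± 0.05).

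Complex IV, cytochrome c oxidase, reduces oxygen at the end of the main chain. It summed to 523.0 ± 14.4 CPM at 8% and 931.6 ± 34.3 CPM at 3% sucrose, a ratio of 0.561 that was the lowest of the proton-pumping complexes in CPM. In summed FPKM it stood at 777.5 ± 31.6 at 8% and 1180 ± 40.2 at 3% sucrose, a fall close to that of complex III. Nuclear subunit 5b-1 was its most abundant: Cluster-2051.71690 had 104.4, 108.4 and 104.8 CPM at 8%, against 334.9, 326.8 and 321.7 CPM at 3% sucrose (log2 fold change -1.63 ± 0.04, adjusted p = 1.15e-06). Subunit 6a, by contrast, averaged 114.2 ± 3.30 CPM at 8% and 124.0 ± 6.43 CPM at 3% sucrose and was not called (adjusted p = 0.0868). Subunit 2, a mitochondrially encoded copper protein, averaged 27.41 ± 4.93 CPM at 8% and 49.18 ± 3.06 CPM at 3% sucrose. Assembly factors of complex IV, which insert heme and copper, summed to 89.93 ± 1.97 CPM at 8% and 145.4 ± 2.57 CPM at 3% sucrose, with COX15, COX11 and the copper chaperone lower and the 2 COX19 proteins higher. The COX19 protein with a Cryptococcus hit kept a log2 fold change of 0.33 to 0.45 but lost its call without 8% replicate 1 or 3 or 3% replicate 1 or 2. Subunit 6a was called lower with RLE scaling and without 3% replicate 2 or 3 (log2 fold changes -0.19, -0.19 and -0.21).

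The mitochondrial ATP synthase had abundant subunits on both sides, with 3 proteins higher and 7 lower among the 10 with a mean of at least 10 CPM. It summed to 1440 ± 33.4 CPM at 8% and 1897 ± 52.4 CPM at 3% sucrose. The catalytic beta subunit, Cluster-2051.75014, had 169.0, 172.5 and 173.0 CPM at 8%, against 404.1, 451.1 and 412.9 CPM at 3% sucrose (log2 fold change -1.30 ± 0.06, adjusted p = 5.08e-06), and the beta-2 protein averaged 171.5 ± 8.04 CPM at 8% and 288.6 ± 14.7 CPM at 3% sucrose. Some subunits of the stalks rose instead: subunit O averaged 358.4 ± 13.6 CPM at 8% and 311.8 ± 8.93 CPM at 3% sucrose, subunit d 233.4 ± 7.72 CPM at 8% and 171.7 ± 5.18 CPM at 3% sucrose, and subunit gamma 194.9 ± 10.6 CPM at 8% and 160.2 ± 4.67 CPM at 3% sucrose. Their log2 fold changes were 0.20 ± 0.05, 0.44 ± 0.05 and 0.28 ± 0.05 (adjusted p = 0.00692, 0.000103 and 0.00242). The call of subunit O was lost with RLE scaling (log2 fold change 0.12) and without 8% replicate 3, 3% replicate 1 or 3% replicate 3 (0.16, 0.15 and 0.10). These rises are small beside the falls of the beta subunits. The delta' and epsilon subunits, which belong to the central stalk with gamma, were lower. The alpha subunit, which flowering plants encode in the mitochondrial genome, had few counts, with 5.889 ± 0.745 CPM at 8% and 4.315 ± 0.898 CPM at 3% sucrose (adjusted p = 0.0700).

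Subunit delta' varied widely between the 8% libraries. Summed over its 10 clusters it averaged 104.0 ± 37.6 CPM at 8% and 226.4 ± 3.34 CPM at 3% sucrose, and its Cluster-2051.74163 had 37.52, 22.99 and 14.26 CPM at 8%, against 190.0, 192.9 and 188.1 CPM at 3% sucrose. Cluster-2051.81940, a long assembly with the same hit, had 23.49, 22.33 and 25.77 CPM at 8%, against 0, 0 and 0.1437 CPM at 3% sucrose (adjusted p = 3.02e-05). All 5 clusters of the assembly factors of the ATP synthase were lower at 8% sucrose. Cluster-2051.28744, for factor 1 and singled out after its values were seen, had 0 counts in all 8% libraries and 4.866, 5.228 and 4.688 CPM at 3% sucrose, at least 62.3-fold lower at 8% when each 8% library is set at 3 counts.

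Of the enzymes and complexes taken by the rule, only the alternative oxidase had a summed CPM higher in all 8% libraries than in any 3% library. All 8 of its clusters, on 4 proteins, were called higher at 8% sucrose; the weakest call, of Cluster-2051.74475, was lost under 7 of 10 alternatives. Together they held 874.4, 896.3 and 876.3 CPM at 8%, against 64.74, 47.56 and 48.92 CPM at 3% sucrose. The sums at 8% were close to each other and each was more than 10 times any sum at 3% sucrose. Cluster-2051.80469, whose best hit is tobacco ubiquinol oxidase 1, carried 68.3% of the sum at 8% and 56.8% at 3% sucrose, with 633.9, 610.3 and 563.4 CPM at 8%, against 36.70, 25.12 and 29.74 CPM at 3% sucrose (log2 fold change 4.30 ± 0.15, adjusted p = 2.51e-06). Cluster-2051.76770, matching Arabidopsis ubiquinol oxidase 1a, had 130.0, 156.0 and 155.5 CPM at 8%, against 6.679, 7.528 and 5.070 CPM at 3% sucrose (log2 fold change 4.52 ± 0.17, adjusted p = 3.04e-06). In Arabidopsis the 1a gene is the form known to be induced by stress.

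**Figure D3:**
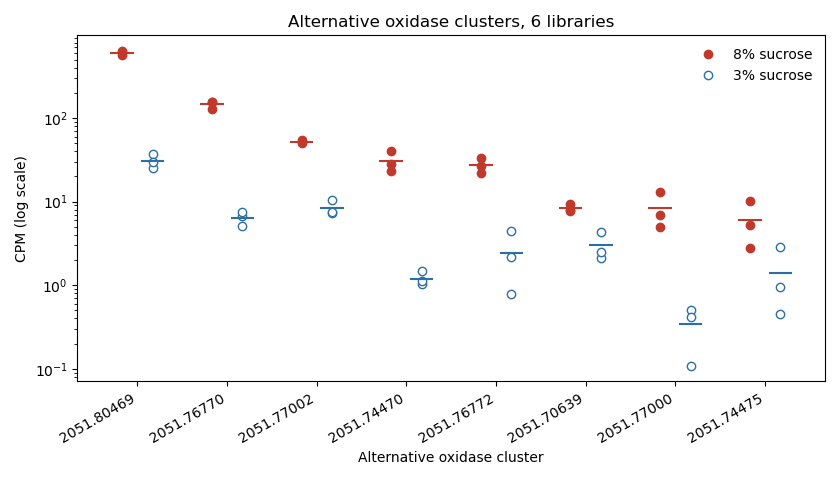
CPM (log scale) of the 8 alternative oxidase clusters in each library, with 8% sucrose as filled points on the left and 3% sucrose as open points on the right of each cluster (3 libraries each, bars are means). The 8% libraries lie above the 3% libraries in 7 clusters, by the widest margins in the abundant ones, and the media overlap in Cluster-2051.74475.

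The smaller alternative oxidase clusters followed. Cluster-2051.74470, also matching 1a, had 23.28, 28.00 and 40.56 CPM at 8%, against 1.020, 1.460 and 1.122 CPM at 3% sucrose, the largest fold change of the 8 (log2 4.66 ± 0.27, adjusted p = 1.90e-05). Cluster-2051.76772, matching tobacco oxidase 2, had 21.85, 26.47 and 33.71 CPM at 8%, against 4.413, 0.7940 and 2.149 CPM at 3% sucrose. The groups did not overlap in either. Cluster-2051.74475 was barely called (log2 fold change 2.09 ± 0.74, adjusted p = 0.0493), with overlapping media. Cluster-2051.77002, with a log2 fold change of 2.63 ± 0.15, has a receptor-like kinase as its best NR hit, so part of its reads may not belong to an oxidase. Per length, the main oxidase cluster stood at 401.7 FPKM at 8% and 18.30 FPKM at 3% sucrose, beside 114.3 and 318.4 FPKM for the main subunit 5b-1 cluster of complex IV. The order of these 2 levels was thus reversed between the media. The plastid terminal oxidase, a relative of the alternative oxidase that works in carotenoid synthesis and thylakoids, went the other way, with 6 of its 8 clusters lower, none higher, and sums of 54.49 ± 2.39 CPM at 8% and 110.7 ± 0.687 CPM at 3% sucrose.

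Whether a cluster was higher or lower at 8% sucrose went with its abundance. Of 135 tested clusters outside the alternative oxidase with a mean of 10 CPM or more, 15 were higher and 107 lower (79.3%), with a median log2 fold change of -0.92. Of 291 with a lower mean, 90 were higher and 51 lower. Over all clusters of the table, 28.5% of those with a mean of 10 CPM or more were higher and 56.0% lower, and 29.2% and 19.3% of the others. The division by abundance was thus present across the table and is not particular to respiration. Within proteins, 32 of the 90 that had 2 or more tested clusters had clusters called in both directions. These include regulatory subunit 1 of NAD-isocitrate dehydrogenase, with 6 clusters higher and 1 lower, and subunit O of the ATP synthase, with 4 higher and 1 lower. Proteins with mixed calls were not counted over the whole table, so whether 32 of 90 is unusual is not known. Over all tested clusters 29.1% were higher and 25.6% lower.

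**Figure D4:**
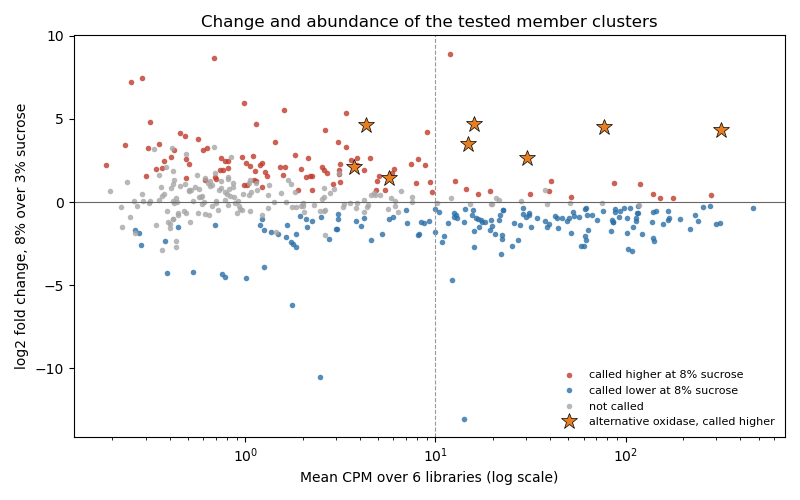
Log2 fold change, 8% over 3% sucrose (vertical axis), against mean CPM over 6 libraries (log scale) for the 434 tested clusters, coloured by call, with the alternative oxidase as stars and a dashed line at 10 CPM. Right of the line, 107 of 135 clusters outside the alternative oxidase are called lower, and left of it more are called higher than lower.

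Genes of the same pathway that the description rule leaves out did not all fall. Over 293 such clusters, 194 were tested, of which 63 were higher and 58 lower at 8% sucrose (32.5% and 29.9%). These shares are near the 29.1% higher and 25.6% lower over all tested clusters. Mitochondrial malate dehydrogenase, which closes the cycle, held 559.8 ± 21.2 CPM at 8% and 405.4 ± 13.4 CPM at 3% sucrose, and cytochrome c, the carrier between complexes III and IV, held 326.6 ± 9.30 CPM at 8% and 214.2 ± 9.60 CPM at 3% sucrose. In summed FPKM, the authors' length-scaled unit, malate dehydrogenase stood at 289.2 ± 7.14 at 8% and 278.1 ± 2.79 at 3% sucrose and cytochrome c at 354.5 ± 15.6 at 8% and 420.3 ± 18.4 at 3% sucrose. The direction for cytochrome c therefore depends on the unit. The alternative NAD(P)H dehydrogenases, which feed electrons to ubiquinone without pumping protons, held 345.4 ± 12.8 CPM at 8% and 313.2 ± 10.7 CPM at 3% sucrose, with 17 of 37 tested clusters higher and 10 lower.

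Among the carriers of the inner membrane, mitochondrial pyruvate carriers held 114.5 ± 2.83 CPM at 8% and 200.9 ± 6.22 CPM at 3% sucrose, and the dicarboxylate/tricarboxylate carriers 139.9 ± 4.25 CPM at 8% and 256.5 ± 10 CPM at 3% sucrose. Of the 14 tested clusters of the second group 10 were higher and 2 lower at 8%, and 1 of the lower ones held 79.9% of the sum at 3% sucrose. The phosphate carriers, which bring in phosphate for ATP synthesis, overlapped in summed CPM, with 401.3 ± 11.9 at 8% and 414.6 ± 12.7 at 3% sucrose, but were higher at 8% in summed FPKM, with 329.9 ± 14.6 at 8% and 264.4 ± 10.3 at 3% sucrose. Their clusters differed widely. Cluster-2051.77387 had 175.1, 173.9 and 161.2 CPM at 8%, against 1.128, 0.7015 and 0.4401 CPM at 3% sucrose (log2 fold change 7.82 ± 0.26, adjusted p = 2.12e-06). Cluster-2051.74683, with the same protein hit and named after its values were seen, had 140.5, 148.8 and 138.0 CPM at 8%, against 260.0, 268.3 and 256.4 CPM at 3% sucrose. Uncoupling protein 1, a carrier named for its homology to the mammalian proton leak protein, had 105.0, 112.3 and 108.2 CPM in Cluster-2051.93876 at 8%, against 391.8, 403.6 and 390.6 CPM at 3% sucrose (log2 fold change -1.87 ± 0.05, adjusted p = 9.22e-07). Uncoupling protein 5 in Cluster-2051.77904 was the most abundant cluster of these related genes and was not called, with 1273, 1082 and 844.5 CPM at 8%, against 902.2, 751.6 and 742.5 CPM at 3% sucrose (adjusted p = 0.0570). It was called higher with DESeq2, without 8% replicate 3 and in the fit with a replicate block (log2 fold changes 0.36, 0.57 and 0.40).

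Transcripts of subunits encoded in the mitochondrial genome (complex I chains, cytochrome b, complex IV subunits 1 to 3 and ATP synthase proteins, 27 clusters, of which 12 belong to the 557) summed to 183.7 ± 20.9 CPM at 8% and 207.6 ± 10.4 CPM at 3% sucrose, and the media overlapped. Of 19 tested, 6 were higher and 5 lower at 8% sucrose (31.6% and 26.3%), near the 29.1% and 25.6% over all tested clusters. That list leaves out iron-sulfur protein 2 and the ATP synthase alpha subunit; with their 7 clusters the sum was 236.7 ± 25.5 CPM at 8% and 459.9 ± 25.0 CPM at 3% sucrose, without overlap. The overlap therefore depends on iron-sulfur protein 2, which held 47.05 ± 5.20 CPM at 8% and 247.9 ± 14.3 CPM at 3% sucrose, and whose place of coding in this cactus is not given in the sources used here. Libraries were made from poly(A) RNA, and plant mitochondrial transcripts are mostly not polyadenylated, so these values cover a selected part of them.

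A last group was kept apart because its best hits come from Escherichia, Salmonella or Yersinia. It holds 31 of the 557 clusters, among them pyruvate dehydrogenase, cycle enzymes and quinol oxidases of those bacteria. They had 129, 88 and 70 counts in all at 8% and 86, 92 and 100 counts at 3% sucrose, and only 1 could be tested and was not called. Leaving them out changed neither the 113 higher nor the 158 lower calls.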

How the data were processed

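Poly(A) RNA of 6 libraries of suspension cells, 3 at 8% and 3 at 3% sucrose, was measured by paired-end sequencing with the NEBNext Ultra kit, per the labels' protocols. That kit does not mark strand, so antisense reads cannot be told apart. The submitters' processing notes list RSEM, Bowtie2, Trimmomatic 0.36 and FastQC. No source used here names the assembler or the authors' differential test. The authors deposited an expected count per cluster and library (45.4% of the values are not whole), and FPKM, per the file headers. The authors' deposited log2 ratio and q-value were used only through their calls. Swiss-Prot and NR best hits, E-values and cluster length (211 to 9956 bp for the 557 clusters, median 1482 bp) are other deposited values.

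Expected counts were rounded, filtered with filterByExpr, scaled with TMM and tested with edgeR 4.0.16 (R 4.3.3) without covariates, with Benjamini-Hochberg adjustment over 85038 clusters and calls at 0.05. The biological coefficient of variation common to all clusters was 41.4%. CPM use TMM-scaled library sizes, on which 3 counts, the limit a count of 0 allows, are 0.0776 to 0.0883 CPM; such bounds cover counting error only. An SE is the absolute log2 fold change divided by the root of the test's F statistic. Errors of means are SDs over 3 libraries. No 2 replicates agreed within sampling noise (chi-square per cluster 8.31 to 15.7). An exact permutation test of 3 against 3 libraries cannot go below p = 0.1, so sums of CPM were given without a test. The scripts were run on simulated counts with a smaller coefficient of variation than 41.4%. That run therefore does not test the calls at the spread of these data.

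The 557 clusters, the lists of related genes and markers and all tests were chosen with earlier results of these data known. Named clusters are, for each enzyme or complex, the most abundant tested cluster and the called clusters with the smallest adjusted p in each direction, and the 3 largest rises and falls among called clusters that average 100 counts or more and do not overlap, 66 with the related genes. Other proteins and clusters given with values, the remaining alternative oxidase clusters among them, and the split at 10 CPM were chosen after their values were seen. Alternatives were RLE scaling, DESeq2 1.42.0, no filter, a replicate block, leaving out each library and summing by protein. Others were an E-value of 1e-20 or less, leaving out NR hits to a list of algae and protists, and leaving out enterobacterial hits. For that list, clusters without an NR species stayed in if their Swiss-Prot hit was from a plant. Figures were drawn with matplotlib 3.10.9. No sequences were used here.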

Additional observations from a re-analysis of the deposited data

How the results depend on the processing

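The counts of 113 clusters higher and 158 lower at 8% sucrose stayed within 1.5 times under every alternative on clusters. They were 103 and 161 with RLE scaling, 115 and 162 with DESeq2, 96 and 153 without the filter, 77 and 134 with an E-value of 1e-20 or less, and the same 113 and 158 with a land plant NR hit and without enterobacterial hits, the last chosen after seeing the data. Summing by protein moved them to 33 and 89 proteins and the median log2 fold change to -0.56, against -0.09 for clusters; fewer features enter that test. Leaving out 1 library gave 90 to 99 higher and 143 to 151 lower, and medians of -0.20 to -0.09, and the log2 ratio of the summed CPM of all clusters was -0.58 to -0.55. RLE scaling shifted log2 fold changes by -0.055 in the median.

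Same-numbered libraries of the media did not deviate together (correlations of 0.024, 0.003 and 0.009), so the numbers do not pair the samples. With the replicate block 88 clusters were higher and 142 lower, with a median of -0.08.

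Of 760 log2 fold changes of 76 clusters under 10 alternatives, 729 kept their direction and their side of the threshold, 23 were no longer called, 4 were newly called and 4 reversed. The reversals were of clusters that were not called: Cluster-20073.0 (0.07, and -0.10 to 0.19 without 1 library) and Cluster-2051.79097 (0.12, and -0.02 to 0.21 without 1 library). The lost calls were of Cluster-2051.52480, Cluster-2051.99558, Cluster-2051.96699 and Cluster-2051.74475, the last an alternative oxidase with log2 fold changes of 1.51 to 2.25 where its call was lost. Of 378 values of 42 of the proteins given in the text, under 9 alternatives, 360 kept direction and call, 14 lost the call, 4 gained it and none reversed. Of 670 counts of calls per enzyme or complex, 84 moved by over 1.5 times. The clusters that were not tested did not pass the filter on low counts, though the largest of them held 571 counts in all.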
